A study of Danio rerio with 12 samples.

Results

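The genes described here are 10 markers of macrophages and neutrophils, the phagocytes of the innate immune system, among 32105 gene IDs counted in RNA from whole zebrafish larvae. They were chosen by name: mpx, lyz and csf3r for neutrophils, mpeg1.1, c1qa, c1qb and c1qc for macrophages, and spi1b, coro1a and lcp1 for white blood cells of the myeloid line more widely. Their Ensembl IDs were ENSDARG00000019521 (mpx), ENSDARG00000057789 (lyz), ENSDARG00000045959 (csf3r), ENSDARG00000055290 (mpeg1.1), ENSDARG00000044613 (c1qa), ENSDARG00000044612 (c1qb), ENSDARG00000095627 (c1qc), ENSDARG00000000767 (spi1b), ENSDARG00000054610 (coro1a) and ENSDARG00000023188 (lcp1). All 10 passed the filter on low counts that left 23096 genes for testing.

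Wild-type larvae were of the TAB14 strain. Mutant larvae came from crossing homozygous carriers of an 8 bp deletion in exon 3 of as3mt, a CRISPR allele with a premature stop, in another strain, ABNYU. The gene encodes arsenite methyltransferase, which methylates inorganic arsenic. Larvae of each genotype were left without arsenic or given inorganic arsenic (iAs) at 1 mM, starting 6 hours after fertilization, and 10 were pooled per library at about 119 hours. There were 3 libraries in each of the 4 groups, untreated and iAs-treated wild type and untreated and iAs-treated mutant. One mutant allele was studied in a strain that differed from the wild type, so allele and strain cannot be told apart in any comparison of genotypes, nor in the difference between the iAs responses of the genotypes.

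Neutrophils are short-lived cells packed with granules of antimicrobial enzymes, and in zebrafish larvae many of them lodge in the caudal haematopoietic tissue. Macrophages live longer, engulf dying cells and microbes, and settle in tissues, as microglia in the brain. Both descend from myeloid progenitors that depend on the transcription factor PU.1, encoded by spi1b, and both are already at work at this larval age.

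The libraries held between 28909467 and 43759270 counts each. All 6 matched markers of liver, gut, pancreas, brain, skin and myelin had counts in every library, the lowest being 183 for mbpa, as the label of whole larvae implies. These 6 markers all fell with iAs in both genotypes, where 22.2% of all tested genes fell in wild type and 32.6% in the mutant. Their summed level was 8740 to 9650 CPM (a count scaled to a common library size) in untreated and 5710 to 6460 in treated wild type. In the mutant it was 7700 to 8500 CPM untreated and 4790 to 5220 treated. The largest part of these sums was krt4. Its means were 6150 and 4220 CPM in untreated and treated wild type, and 5530 and 4030 CPM in the untreated and treated mutant. A gene's CPM is a share of the RNA of the whole larva. In such samples fewer cells of a type and less RNA per cell cannot be told apart. The level of as3mt was 14.3, 16.8 and 17.2 CPM in untreated wild type, 9.77, 9.73 and 9.93 with iAs, 9.21, 9.91 and 9.52 in the untreated mutant and 3.02, 3.31 and 3.51 in the treated mutant. It was 1.68-fold lower in the untreated mutant than in untreated wild type (log2 fold change -0.75 ± 0.10 SE, edgeR adjusted p = 3.9e-05), and a small deletion can leave a transcript that is still counted.

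The phagocyte markers did not move as a block under iAs. In wild type, lyz, coro1a and lcp1 fell, the sparsely counted c1qb was called lower, and no member rose. In the mutant, lyz and coro1a fell while mpeg1.1, spi1b and csf3r rose. The neutrophil granule gene mpx did not pass the test for iAs in either genotype, and was higher in the mutant than in wild type both without and with iAs. All tests are edgeR quasi-likelihood tests on the counts, adjusted over the 23096 genes with the Benjamini-Hochberg method, with a gene called at an adjusted p below 0.05.

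**Figure D1:**
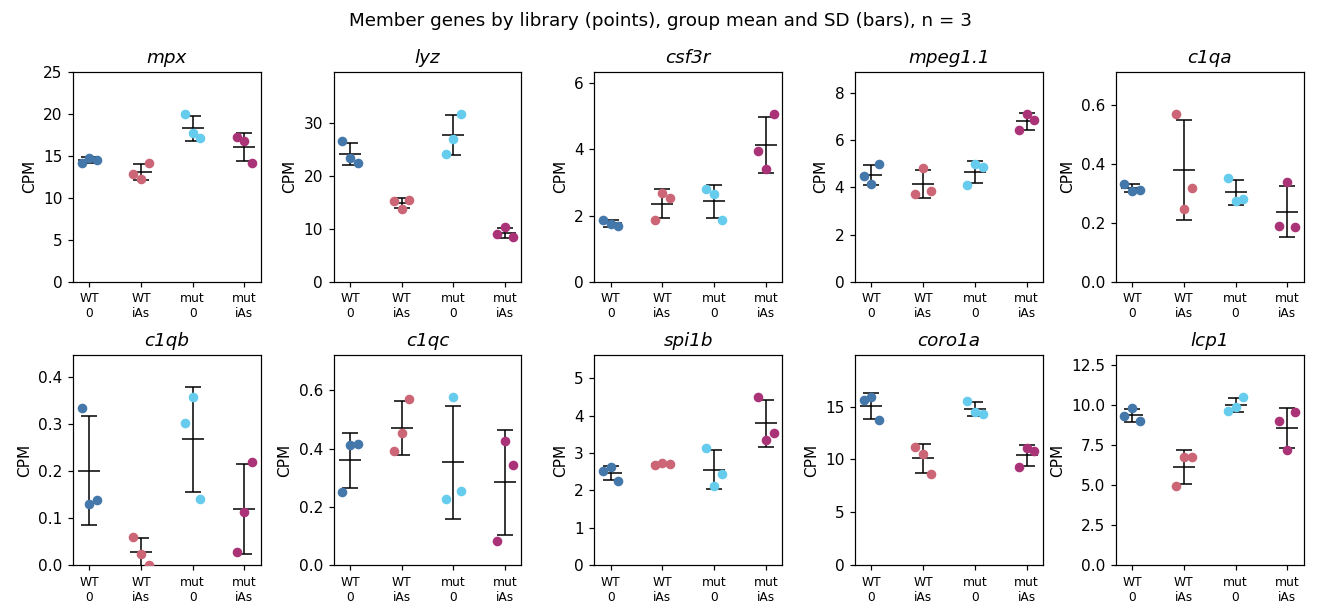
Level of each of the 10 marker genes in CPM (y axis, from 0) in untreated (0) and iAs-treated (iAs) libraries of wild type (WT) and as3mt mutant (mut). Points are libraries and bars are the group mean and SD, n = 3; lyz is lowest in the treated mutant, at 8.46 to 10.3 CPM, where mpeg1.1 is highest, at 6.42 to 7.11 CPM.

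Among the neutrophil genes, lyz encodes lysozyme C, which cuts bacterial cell walls and in zebrafish larvae is made by neutrophils and by some macrophages. Its level was 26.5, 23.4 and 22.4 CPM in untreated wild type and 15.2, 13.7 and 15.5 CPM with iAs. In the mutant it was 24.2, 27.0 and 31.7 CPM untreated and 9.09, 10.3 and 8.46 CPM with iAs. Every treated library lay below every untreated one, and the treated mutant lay below treated wild type. With iAs, lyz fell 1.63-fold in wild type (log2 -0.71 ± 0.10, adjusted p = 3.0e-05) and 2.98-fold in the mutant (-1.57 ± 0.11, adjusted p = 7.4e-10). The fall was larger in the mutant by 0.87 on the log2 scale (interaction -0.87 ± 0.15, adjusted p = 3.1e-04). Without iAs the mutant's lyz level was not called different (0.20 ± 0.10, adjusted p = 0.234), and with iAs it was 1.59-fold lower than in wild type (-0.67 ± 0.11, adjusted p = 6.8e-05).

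Myeloperoxidase, the granule enzyme that makes hypochlorous acid, is encoded by mpx, the gene most used to count zebrafish neutrophils. The name table used here lists its ID as EPX, so the ID was taken as mpx from general knowledge of zebrafish gene names. Another ID, which the table names epx, went the other way from mpx between genotypes. It was not called without iAs (-0.39, adjusted p = 0.469) and was lower in the treated mutant than in treated wild type (-1.07, adjusted p = 0.00854). The level of mpx was 14.1, 14.8 and 14.5 CPM in untreated wild type and 12.8, 12.3 and 14.1 CPM with iAs. Mutant libraries had 20.0, 17.7 and 17.1 CPM untreated and 17.2, 16.8 and 14.2 CPM with iAs. The treated mutant overlapped the untreated mutant, and both mutant groups lay above the wild-type group of the same treatment. The iAs differences did not pass the test (wild type -0.15 ± 0.10, 95% interval -0.33 to 0.04, adjusted p = 0.231; mutant -0.18 ± 0.09, -0.37 to 0.00, adjusted p = 0.0976). The mutant had 1.26-fold more mpx than wild type without iAs (0.34 ± 0.09, adjusted p = 0.0239) and 1.23-fold more with iAs (0.30 ± 0.10, adjusted p = 0.0142). Both calls were near the threshold. The first was lost when any of the 3 untreated wild-type libraries or untreated mutant libraries 1 or 2 was left out (0.26 to 0.36, adjusted p 0.0528 to 0.127), and the second without treated wild-type library 2 (0.24, adjusted p = 0.0751) or treated mutant library 1 (0.25, adjusted p = 0.0591). Scaled by library size alone, the fall of mpx in the mutant was called (-0.25, adjusted p = 0.0337).

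The receptor for granulocyte colony-stimulating factor, which drives neutrophil production and release, is encoded by csf3r. Its level was 1.87, 1.75 and 1.67 CPM in untreated wild type, 1.86, 2.69 and 2.52 CPM with iAs, 2.80, 2.64 and 1.86 CPM in the untreated mutant and 3.94, 3.40 and 5.07 CPM in the treated mutant. Treated mutant libraries were above every other library, while the other groups overlapped one another in part. The receptor gene rose 1.69-fold with iAs in the mutant (0.76 ± 0.20, adjusted p = 0.00301) and was 1.74-fold higher there than in treated wild type (0.80 ± 0.20, adjusted p = 0.00289). In wild type the iAs difference was 0.42 ± 0.21 (95% interval 0.01 to 0.84, adjusted p = 0.118). That interval is a normal approximation and somewhat narrow, and the edgeR test gave no call here even at an unadjusted p under 0.05. The difference between the responses was not called (0.33 ± 0.29, adjusted p = 0.425).

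These neutrophil genes therefore differed in direction within the same larvae: in the treated mutant lyz was lower, mpx not called different and csf3r higher than in the untreated mutant. As lyz and mpx are both granule genes, their ratio was also taken in each library, a comparison chosen after their values were seen. The ratio of lyz to mpx CPM was 1.88, 1.58 and 1.54 in untreated wild type (mean 1.67, SD 0.185, n = 3) and 1.18, 1.12 and 1.1 with iAs (1.13, SD 0.0442). It was 1.21, 1.52 and 1.86 in the untreated mutant (1.53, SD 0.323) and 0.528, 0.610 and 0.597 in the treated mutant (0.579, SD 0.0441). Treated and untreated groups did not overlap in either genotype, and treated mutant libraries were the lowest. These ratios are a description, since they were chosen for what the values showed. An exact permutation test of the log2 ratio gave p = 0.1 for iAs in either genotype. That is the smallest p possible with 3 libraries a group, so the test could not decide.

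**Figure D2:**
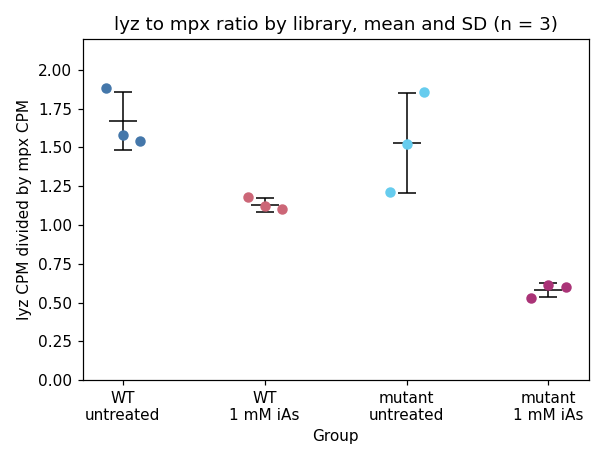
Ratio of lyz to mpx CPM in each library (y axis, no unit, from 0) by group, with the group mean and SD, n = 3. The mean falls from 1.67 to 1.13 with iAs in wild type and from 1.53 to 0.579 in the mutant.

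Of the macrophage genes, mpeg1.1 encodes perforin-2, a pore-forming protein of the phagolysosome, and its promoter is the standard driver for labelling zebrafish macrophages. It had 4.46, 4.15 and 4.97 CPM in untreated wild type, 3.73, 4.81 and 3.84 CPM with iAs, 4.11, 4.97 and 4.86 CPM in the untreated mutant and 6.42, 7.11 and 6.86 CPM in the treated mutant. Treated mutant libraries were again apart from all the others, and the other groups overlapped. With iAs, mpeg1.1 rose 1.46-fold in the mutant (0.55 ± 0.14, adjusted p = 0.00178), whereas the wild-type difference was -0.12 ± 0.14 (95% interval -0.40 to 0.15, adjusted p = 0.499). The responses differed by 0.67 ± 0.19 on the log2 scale (interaction, adjusted p = 0.0142), and the treated mutant was 1.64-fold above treated wild type (0.71 ± 0.14, adjusted p = 2.9e-04).

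The name table used here gives the symbol MPEG1 to 3 Ensembl IDs, and mpeg1.1 was taken as ENSDARG00000055290 from general knowledge of zebrafish gene names. A second MPEG1 ID, ENSDARG00000043093, had 5.68, 5.36 and 6.12 CPM in untreated wild type, 25.8, 25.3 and 28.4 CPM with iAs, 7.39, 5.22 and 6.95 CPM in the untreated mutant and 47.5, 50.5 and 44.4 CPM in the treated mutant. It rose 4.64-fold with iAs in wild type (2.21 ± 0.11, adjusted p = 3.3e-11) and 7.27-fold in the mutant (2.86 ± 0.11, adjusted p = 3.0e-13), with a larger rise in the mutant (interaction 0.65 ± 0.15, adjusted p = 0.00363). The remaining ID, ENSDARG00000078569, had 0 or 1 count in each library and was not tested. How the counting treated reads that match more than 1 of these IDs is not known, and their sequences were not compared. The wild-type response of the mpeg1 family therefore differed between IDs, with a rise for ENSDARG00000043093 and no call for the ID taken as mpeg1.1.

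The chains of C1q, the recognition molecule of the classical complement pathway, are encoded by c1qa, c1qb and c1qc. Macrophages and microglia are a main source of C1q in mammals. In the RefSeq annotation of the GRCz12tu assembly, c1qb, c1qc and c1qa follow one another with no protein-coding gene between them. All 3 were near the limit of detection in whole larvae, with 6 to 19 counts per library for c1qa, 0 to 13 for c1qb and 3 to 25 for c1qc.

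Counts of c1qb were 12, 5 and 4 in untreated wild type, 2, 1 and 0 with iAs, 12, 13 and 5 in the untreated mutant and 1, 4 and 7 in the treated mutant. Treated wild-type libraries were all below untreated ones, and the mutant groups overlapped. It passed the filter on low counts through 3 untreated libraries alone, 1 of wild type and 2 of the mutant, so the groups where it was high let it be tested. The fitted fall in wild type was called (-2.86 ± 0.91, edgeR adjusted p = 0.0158, and the same adjusted p with no filter). With only the wild-type libraries in the fit, c1qb did not pass the filter. The summed counts were 3 against 21, a depth-scaled ratio of 0.122 with an exact 95% interval of 0.0233 to 0.408, which covers counting error only. The call was lost without untreated wild-type library 1 (-2.27, adjusted p = 0.1), treated library 2 (-2.79, adjusted p = 0.051) or treated library 3 (-2.29, adjusted p = 0.0685), and was -3.82 without treated library 1. In the mutant the sums were 12 against 30, a ratio of 0.427 (0.199 to 0.859), and the fitted change was not called (-1.19 ± 0.67, adjusted p = 0.131). Without treated mutant library 1, the treated mutant was called above treated wild type (2.57, adjusted p = 0.0413), against 2.08 ± 1.00 (adjusted p = 0.0943) with all libraries.

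The other C1q chains gave no call in any comparison. Summed counts of c1qa were 33 in untreated wild type, 44 with iAs, 34 in the untreated mutant and 25 with iAs. Those of c1qc were 37, 58, 39 and 29 in the same order. The depth-scaled ratio of treated to untreated was 1.14 (0.708 to 1.84) for c1qa and 1.34 (0.870 to 2.08) for c1qc in wild type, and 0.786 (0.449 to 1.36) and 0.794 (0.474 to 1.32) in the mutant. These intervals cover counting error only. The fitted 95% intervals of the log2 change were -0.61 to 1.04 for c1qa and -0.54 to 1.35 for c1qc in wild type. In the mutant they were -1.22 to 0.54 and -1.35 to 0.7. For c1qa and c1qc a change within the fitted intervals, or somewhat beyond them since they are approximate and narrow, could have gone undetected at this depth.

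The transcription factor PU.1, encoded by spi1b, turns on many genes of the macrophage and neutrophil programmes. It had 2.53, 2.63 and 2.26 CPM in untreated wild type, 2.68, 2.73 and 2.72 CPM with iAs, 3.13, 2.11 and 2.43 CPM in the untreated mutant and 4.50, 3.34 and 3.54 CPM in the treated mutant. Treated mutant libraries were the highest here too. With iAs, spi1b rose 1.48-fold in the mutant (0.57 ± 0.18, adjusted p = 0.00933), and the wild-type difference was 0.13 ± 0.18 (95% interval -0.23 to 0.48, adjusted p = 0.602). The difference between the responses was not called (0.44 ± 0.25, adjusted p = 0.205). The rise in the mutant was lost without treated mutant library 1 (0.42, adjusted p = 0.0658) or untreated mutant library 2 (0.44, adjusted p = 0.0594). The treated mutant was 1.40-fold above treated wild type (0.49 ± 0.17, adjusted p = 0.0273), a call lost without treated mutant library 1 (0.34, adjusted p = 0.155), without any 1 of the treated wild-type libraries (adjusted p 0.0578 to 0.0636) and with scaling by library size alone (0.43, adjusted p = 0.051).

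Both remaining markers encode actin regulators found in most white blood cells. Coronin 1A, encoded by coro1a, controls actin turnover during migration and uptake. Its level was 15.6, 15.9 and 13.7 CPM in untreated wild type, 11.2, 10.5 and 8.58 CPM with iAs, 15.5, 14.5 and 14.3 CPM in the untreated mutant and 9.28, 11.1 and 10.8 CPM in the treated mutant. Every treated library lay below every untreated one, and the genotypes overlapped at each treatment. It fell 1.5-fold in wild type (-0.58 ± 0.11, adjusted p = 3.0e-04) and 1.42-fold in the mutant (-0.51 ± 0.11, adjusted p = 5.3e-04), with a difference between the responses of 0.07 ± 0.15 (95% interval -0.23 to 0.37, adjusted p = 0.757).

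L-plastin, encoded by lcp1, bundles actin filaments and is the usual antibody target for staining all leukocytes in zebrafish larvae. Levels of lcp1 were 9.30, 9.80 and 9.01 CPM in untreated wild type and 4.93, 6.75 and 6.77 CPM with iAs. In the mutant they were 9.61, 9.91 and 10.5 CPM untreated and 9.01, 7.19 and 9.58 CPM with iAs. Treated wild-type libraries were below all the others, while treated mutant libraries overlapped untreated wild type and lay below the untreated mutant, the nearest pair being 9.58 and 9.61 CPM. The gene fell 1.52-fold in wild type (-0.60 ± 0.13, adjusted p = 0.00117), and the mutant difference was not called (-0.22 ± 0.13, 95% interval -0.47 to 0.03, adjusted p = 0.14). With iAs the mutant had 1.39-fold more lcp1 than wild type (0.47 ± 0.13, adjusted p = 0.00609). The difference between the responses was not called (0.38 ± 0.18, adjusted p = 0.131) but was without treated mutant library 2 (0.52, adjusted p = 0.0317).

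**Figure D3:**
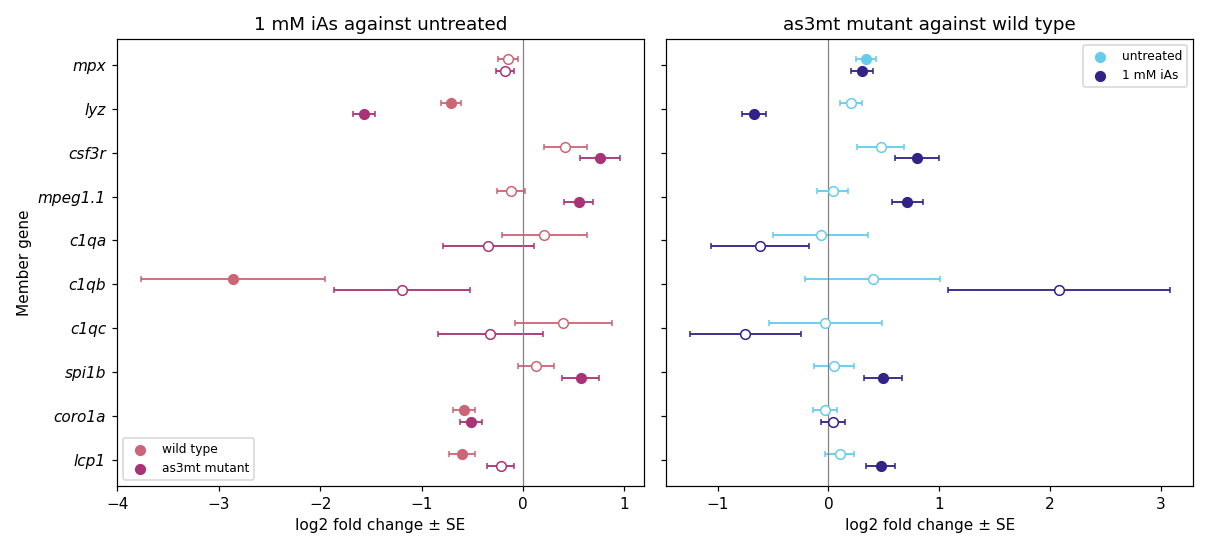
Log2 fold change (x axis) of each marker gene (y axis) with its SE, for iAs against untreated (left) and mutant against wild type (right). Filled points are called at an adjusted p below 0.05 and open points are not; with iAs lyz lies at -0.71 in wild type and -1.57 in the mutant.

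Over the 10 markers, iAs in wild type gave 0 rises and 4 falls, where 22.6% of all tested genes rose and 22.2% fell. At an unadjusted p under 0.05 edgeR also gave 0 rises, and DESeq2 gave 0 rises and 4 falls. Of the 4 falls, that of c1qb rests on few counts and on the filter, and 3 falls were left with only the wild-type libraries in the fit. In the mutant 3 markers rose and 2 fell, where 31.1% and 32.6% of all genes did. With 10 genes, these counts are near the background shares. The median log2 fold change of the markers was -0.14 in wild type and -0.27 in the mutant, against 0.01 for all genes in both.

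Between genotypes, 1 marker was higher and 0 were lower in the untreated mutant, where 6.64% and 6.82% of all genes were (at an unadjusted p under 0.05, edgeR gave 2 and 0, and DESeq2 called 1 and 0). With iAs, mpx, csf3r, mpeg1.1, spi1b and lcp1 were higher and lyz was lower in the mutant, where 22.5% of all genes were higher and 27.9% lower. The count of 5 higher markers dropped to 3 without treated wild-type library 2. The response to iAs differed between genotypes for 1 marker upward, mpeg1.1, and 1 downward, lyz, where 12.3% and 17.9% of all genes were called. The 5 comparisons share libraries, and the comparison of treated genotypes in particular uses the same treated libraries as both iAs responses. The summed level of the markers, in which abundant genes count most, was 69.4 to 75.3 CPM in untreated wild type, 53.4 to 55.0 with iAs, 80.1 to 83.4 in the untreated mutant and 59.2 to 60.1 in the treated mutant.

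Inside the groups no common variation of the markers was seen. Pearson correlations of their deviations from the group means of log2 CPM over the 12 libraries ran from -0.94 to 0.67 for the 45 pairs, with a median of -0.06. Without the sparse C1q genes, the 21 pairs ran from -0.68 to 0.60 with a median of -0.06. These are descriptions of libraries that share depth and scaling. The deviations also hold counting error, with as few as 48 counts for csf3r and 65 for spi1b in a library. A variation shared by the markers could therefore go unseen.

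The genes whose log2 CPM followed each marker most closely over the 12 libraries, among 16675 named genes with a mean of at least 1 CPM, differed from marker to marker. For lyz they included NEFL and hp1bp3 (Pearson r of 0.997 and 0.995). For coro1a they were cacng6b, APC2 and kcnc3b (0.974, 0.973 and 0.971). For mpeg1.1 they were SLC44A2, npr2 and ftr83 (0.973, 0.946 and 0.939), and for csf3r mfsd14bb, CAP1 and smyhc2 (0.967, 0.962 and 0.962). The nearest to spi1b were ZC3H12A, REST and mertka (0.95, 0.942 and 0.941), those to lcp1 were CLEC3B, caspb and FAM135B (0.925, 0.919 and 0.902) and those to mpx were STAG1, drd4-rs and ITGA1 (0.919, 0.918 and 0.908). No marker was among the 3 nearest genes of another. The C1q genes average under 1 CPM, so they were not among the genes searched and could not appear. Each r is taken over libraries of all 4 groups, so it holds the differences between groups as well as those within them.

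Other genes of the same cells and pathways split in both directions as well. Of 10 tested further neutrophil genes, 5 rose and 1 fell with iAs in wild type, and 7 rose and 2 fell in the mutant, with medians of 0.20 and 1.09 on the log2 scale. The shares of all tested genes to set beside this and the following lists are 22.6% higher and 22.2% lower in wild type, and 31.1% higher and 32.6% lower in the mutant. The largest rises were those of metalloproteases. The collagenase gene mmp13a.1 had 1.48, 2.22 and 1.15 CPM in untreated wild type, 7.85, 3.66 and 4.19 CPM with iAs, 1.41, 1.02 and 1.33 CPM in the untreated mutant and 58.7, 13.1 and 20.5 CPM in the treated mutant. Treated mutant library 1 was far above the others of its group. The rise was 3.12-fold in wild type (1.64 ± 0.50, adjusted p = 0.0121), lost without treated wild-type library 1 (1.24, adjusted p = 0.0679), and 24.5-fold in the mutant (4.61 ± 0.48, adjusted p = 1.7e-07), or 3.74 on the log2 scale without treated mutant library 1.

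Gelatinase B, encoded by mmp9, and the surface metalloprotease gene adam8a also rose in both genotypes. For mmp9 the rise was 2.35-fold in wild type (1.23 ± 0.25, adjusted p = 5.5e-04) and 5.21-fold in the mutant (2.38 ± 0.24, adjusted p = 1.3e-07). The rise of adam8a was 1.5-fold in wild type (0.58 ± 0.14, adjusted p = 0.00226) and 3.83-fold in the mutant (1.94 ± 0.13, adjusted p = 6.7e-10). By contrast npsn, a neutrophil-restricted metalloprotease gene in zebrafish picked out after its values were seen, fell as lyz did, by 0.44 on the log2 scale in wild type (-0.44 ± 0.11, adjusted p = 0.0043) and 0.69 in the mutant (-0.69 ± 0.12, adjusted p = 6.6e-05). Its level was 10.1, 9.72 and 11.1 CPM in untreated and 7.82, 7.43 and 7.53 CPM in treated wild type, and 8.02, 8.07 and 8.76 CPM in the untreated and 5.07, 5.98 and 4.32 CPM in the treated mutant, with no overlap in either genotype. Several of the genes that rose, mmp9 and mmp13a.1 among them, are also made by other cells such as epidermis, and their source in a whole larva was not tested.

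Of 23 further macrophage and microglia genes, 7 rose and 8 fell in wild type, and 11 rose and 10 fell in the mutant, with medians of -0.01 and 0.05. The wild-type counts are not far from the all-gene shares of 22.6% higher and 22.2% lower, and in the mutant those shares were 31.1% and 32.6%. The chemokine gene ccl34a.4 had 0.251, 0.0774 and 0.244 CPM in untreated wild type, 1.14, 2.01 and 1.40 CPM with iAs, 0.0757, 0.0275 and 0.396 CPM in the untreated mutant and 7.07, 4.87 and 5.32 CPM in the treated mutant. It rose 8.15-fold in wild type (3.03 ± 0.48, adjusted p = 6.1e-05) and 34.8-fold in the mutant (5.12 ± 0.44, adjusted p = 1.3e-08), or by 6.68 on the log2 scale without untreated mutant library 3. The cathepsin S gene ctss2.1, a lysosomal protease, rose 3.33-fold in wild type (1.73 ± 0.14, adjusted p = 1.4e-08) and 6.17-fold in the mutant (2.62 ± 0.13, adjusted p = 9.6e-12). The galectin gene lgals9l1 rose 2.36-fold (1.24 ± 0.13, adjusted p = 6.2e-07) and 1.46-fold (0.55 ± 0.13, adjusted p = 9.5e-04).

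With genes averaging under 1 CPM left aside, the gene of this list that fell most in the mutant was timd4, which in mammals encodes a receptor by which resident macrophages take up dying cells. It had 2.37, 2.32 and 2.40 CPM in untreated wild type, 1.74, 1.49 and 1.21 CPM with iAs, 2.83, 2.77 and 2.29 CPM in the untreated mutant and 0.108, 0.255 and 0.313 CPM in the treated mutant. Treated mutant libraries were far below all the others. The fall was 1.6-fold in wild type (-0.68 ± 0.22, adjusted p = 0.0195), lost without treated wild-type library 3 (-0.57, adjusted p = 0.0824), and 11.7-fold in the mutant (-3.55 ± 0.30, adjusted p = 8.8e-09). In treated mutant larvae mpeg1.1 and timd4 thus moved in opposite directions. Of the genes of this list left aside as averaging under 1 CPM, none was called higher with iAs in either genotype. Among them cd74a fell in wild type (-2.41 ± 0.32, adjusted p = 8.9e-06) and in the mutant (-2.32 ± 0.37, adjusted p = 2.4e-05). So did cd74b (-1.57 ± 0.35, adjusted p = 0.00145, and -2.36 ± 0.42, adjusted p = 9.6e-05).

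Of 14 further pan-leukocyte genes, 1 rose and 4 fell in wild type, and 2 rose and 5 fell in the mutant, with medians of -0.28 and -0.17. The falls are near the all-gene shares of 22.2% in wild type and 32.6% in the mutant, and the rises were set against 22.6% and 31.1%, so the counts are no result about these genes. The gene was, which encodes the Wiskott-Aldrich syndrome protein that starts actin branching in blood cells, fell 1.5-fold in wild type (-0.59 ± 0.18, adjusted p = 0.0153) and 2.38-fold in the mutant (-1.25 ± 0.20, adjusted p = 2.6e-05). The wild-type call was lost without treated library 2 (-0.48, adjusted p = 0.0765) or untreated library 1 (-0.54, adjusted p = 0.0561). The Arp2/3 subunit gene arpc1b fell 1.39-fold in wild type (-0.47 ± 0.07, adjusted p = 4.4e-05) and 1.13-fold in the mutant (-0.17 ± 0.07, adjusted p = 0.0418), a mutant call lost in 10 of the recomputations. The actin-binding gene cotl1 rose 1.41-fold (0.49 ± 0.07, adjusted p = 1.8e-05) and 1.61-fold (0.69 ± 0.07, adjusted p = 1.2e-07), while arhgdig rose 1.18-fold in the mutant (0.24 ± 0.05, adjusted p = 8.0e-04) and was -0.03 ± 0.05 in wild type (adjusted p = 0.663). Of this list 9 genes in wild type and 7 in the mutant were not called, ptprc and laptm5 among them in both. Genes averaging under 1 CPM were left aside in this naming, though their changes were larger. Of these tyrobp fell in wild type (-2.18 ± 0.48, adjusted p = 0.00127) and in the mutant (-2.17 ± 0.47, adjusted p = 5.6e-04), with 4 to 64 counts per library. The gene fcer1g fell in the mutant (-2.09 ± 0.44, adjusted p = 4.9e-04) and was not called in wild type (-0.90 ± 0.39, adjusted p = 0.0675). Which cells of the whole larva made these transcripts was not tested.

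The phagocyte NADPH oxidase makes the superoxide from which myeloperoxidase products derive. Of its 5 tested subunit genes, 1 rose and 1 fell in wild type, where 22.6% and 22.2% of all genes did, and 3 rose and 1 fell in the mutant, where 31.1% and 32.6% did. The wild-type counts are at the background. The catalytic subunit gene cybb had 2.76, 2.91 and 3.30 CPM in untreated wild type, 2.17, 2.76 and 2.49 CPM with iAs, 2.90, 1.56 and 2.2 CPM in the untreated mutant and 11.1, 8.81 and 10.9 CPM in the treated mutant. The treated mutant stood apart from every other group. The rise of cybb was 4.60-fold in the mutant (2.2 ± 0.18, adjusted p = 8.4e-09), and the wild-type difference was -0.26 ± 0.19 (adjusted p = 0.283). Its partner cyba rose 1.80-fold in wild type (0.85 ± 0.12, adjusted p = 1.5e-05) and 2.65-fold in the mutant (1.41 ± 0.11, adjusted p = 4.2e-09). The regulatory subunit gene ncf4 fell 1.87-fold (-0.90 ± 0.25, adjusted p = 0.00618) and 2.55-fold (-1.35 ± 0.25, adjusted p = 1.6e-04).

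Among 15 tested myeloid growth factors and regulators, 2 rose and 4 fell in wild type, and 6 rose and 5 fell in the mutant. The all-gene shares were 22.6% and 22.2%, and 31.1% and 32.6%, and the falls are near them. The gene irf8 is in this list and in the macrophage and microglia list, so its rise in the mutant is counted in both. The ligand of csf3r, granulocyte colony-stimulating factor, is encoded by csf3a, named here after its values were seen because of that role. It had 0.167, 0.516 and 0.174 CPM in untreated wild type, 0.210, 0.632 and 0.320 CPM with iAs, 0.0757, 0.0549 and 0.0565 CPM in the untreated mutant and 1.89, 2.21 and 1.35 CPM in the treated mutant. It rose in the treated mutant, by 4.78 ± 0.55 on the log2 scale (adjusted p = 5.2e-07), while in wild type it was at 0.43 ± 0.49 (adjusted p = 0.51). The size of that rise rests on a baseline of 3, 2 and 2 counts. Without iAs csf3a was called lower in the mutant than in wild type (-2.17 ± 0.68, adjusted p = 0.0406). That call was lost without untreated wild-type library 2 (-1.39, adjusted p = 0.285) or any 1 untreated mutant library. With iAs the mutant was higher than wild type by 2.19 ± 0.4 (adjusted p = 2.3e-04). The other zebrafish ligand gene, csf3b, did not pass the filter on low counts. Counts of csf3b were 6, 10 and 6 in untreated wild type, 5, 9 and 3 with iAs, 4, 12 and 7 in the untreated mutant and 25, 3 and 5 in the treated mutant, with overlap in both genotypes.

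The transcription factor gene cebpb, active in emergency production of neutrophils in mammals and in many other tissues, rose 2.1-fold in wild type (1.07 ± 0.22, adjusted p = 8.5e-04) and 6.82-fold in the mutant (2.77 ± 0.22, adjusted p = 6.0e-09). A ligand of the macrophage receptor csf1r, il34, rose 1.94-fold (0.96 ± 0.22, adjusted p = 0.00158) and 2.98-fold (1.58 ± 0.21, adjusted p = 3.6e-06). Treated mutant library 1 stood above the others of its group, with 237 CPM against 119 and 136 for cebpb. For il34 it had 7.71 CPM against 4.53 and 4.98. For irf8, the factor that directs zebrafish myeloid cells to the macrophage fate, the change was 1.00 ± 0.23 in the mutant (2.00-fold higher, adjusted p = 8.3e-04) and -0.01 ± 0.25 in wild type (adjusted p = 0.979). The regulator gene runx3 fell 1.48-fold (-0.57 ± 0.13, adjusted p = 0.00137) and 1.61-fold (-0.69 ± 0.13, adjusted p = 1.3e-04).

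**Figure D4:**
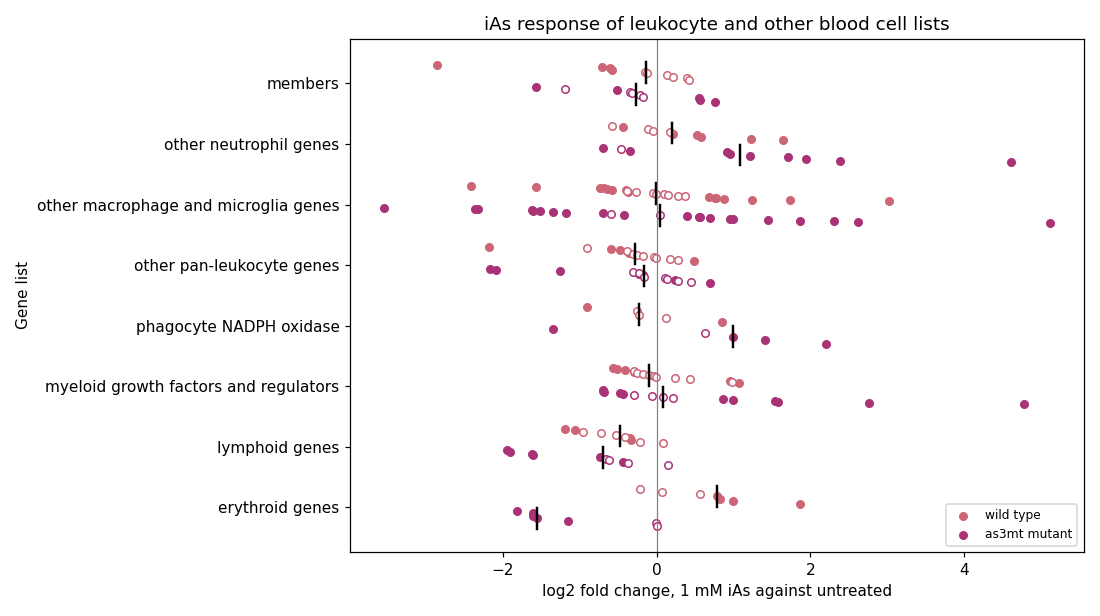
Log2 fold change with iAs (x axis) of the marker genes and of tested genes of other lists (y axis) in wild type (upper row of each list) and as3mt mutant (lower row). Each point is a gene, filled where called at an adjusted p below 0.05, and vertical bars are list medians; the markers have medians of -0.14 and -0.27, and the other neutrophil genes 0.20 and 1.09.

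Genes of neighbouring systems are given as counts, without a test of the list, beside the all-gene shares of 22.6% higher and 22.2% lower in wild type and 31.1% and 32.6% in the mutant. Of 16 tested complement genes outside the C1q chains, 8 rose and 4 fell in wild type and 8 rose and 7 fell in the mutant, so the list moved in both directions. The largest single change was the rise of c4b, a complement component activated through C1 (2.23 ± 0.19, adjusted p = 3.5e-08 in wild type and 4.06 ± 0.19, adjusted p = 6.6e-12 in the mutant). Of 10 tested lymphoid genes 0 rose in either genotype, by edgeR with and without adjustment and by DESeq2, while 4 fell in wild type and 6 in the mutant. The recombinase gene rag1 fell 2.29-fold (-1.19 ± 0.17, adjusted p = 2.5e-05) and 3.86-fold (-1.95 ± 0.18, adjusted p = 4.1e-08), and the T-cell genes cd8a and cd4-1 had 0 to 1 and 0 to 6 counts per library. The summed level of the lymphoid list was 198 to 209 CPM in untreated wild type, 153 to 163 with iAs, 201 to 206 in the untreated mutant and 122 to 137 in the treated mutant. Most of this sum was tox and gata3, with means of 126 and 65.9 CPM in untreated wild type and 77.5 and 45.2 CPM in the treated mutant. It therefore shows little of the other lymphoid genes. Both tox and gata3 were also among the 4 genes called lower in wild type, and their source in the whole larva was not tested.

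Of 7 tested red blood cell genes, 4 rose and 0 fell in wild type (median 0.79), against all-gene shares of 22.6% and 22.2%, and 0 rose and 5 fell in the mutant (median -1.56), against 31.1% and 32.6%. Both counts of 0 were also 0 by edgeR at an unadjusted p under 0.05 and by DESeq2. Their summed level was 181 to 214 CPM, 292 to 347, 217 to 279 and 192 to 247 CPM in the same order of groups. Most of this sum was hbae3, with group means of 146, 257, 188 and 187 CPM. In the list of mast cell and thrombocyte genes, the mast cell gene cpa5 matched no ID, so no mast cell gene was measured. The 4 genes tested were itga2b, mpl, gp1bb and fli1a. Of these 1 fell in wild type, fli1a, near the 22.2% of all genes, and 4 in the mutant, where 32.6% did. Their sums were 30.1 to 33.4, 27.5 to 28.6, 30.9 to 31.8 and 22.7 to 23.1 CPM. Nearly all of each sum was fli1a, whose source in the whole larva was not tested, and the other genes averaged under 1 CPM. The sums therefore show little of those other genes. Every matched gene of these lists had counts in at least 1 library. The part of these other cells in the levels of the phagocyte markers was not tested.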

How the data were processed

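RNA-seq libraries were made from pools of whole larvae, and RNA was poly-A selected, per the labels' protocols. The labels name both a TruSeq V2 and a directional NEBNext kit, so strandedness is uncertain. Each of the 12 deposited files holds raw counts by Ensembl gene ID (32105 in all), as deposited by the authors. FastQC 0.11.5, Trimmomatic 0.36 and build GRCz10 are named in the submitters' processing notes. For the aligner, the counter and how strand and shared reads were handled, no name or setting is given in the sources used here.

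Groups came from the sample titles. The titles end in a tag, cl and a replicate number, that the labels do not explain, and the main fit did not use it to pair samples. Separate clutches are not stated, so the p-values reflect only how far these samples scatter, partly perhaps for technical reasons. Counting error is small for well-counted genes and large for the C1q genes. The common biological coefficient of variation was 9.00%. Every pair of replicates differed beyond sampling noise, with a chi-square per degree of freedom of 5.18 to 21.5. The largest values, 21.5 and 17.2, were both from pairs with treated mutant library 1.

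The 10 members and the other lists were chosen with earlier results of these data known. Symbols came from a name table that covers 26269 IDs, with RefSeq synonyms for some. Of the members, 6 matched by symbol, spi1b by its synonym and c1qb by a given ID. Both mpx (ENSDARG00000019521, named EPX in the table) and mpeg1.1 were assigned from general knowledge of zebrafish gene names. Of 140 other list entries 119 matched, mmp13a.1 by its base symbol. Levels are CPM after TMM scaling, not divided by length, so they are compared within a gene only.

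Genes kept by filterByExpr (minimum count 10) were fitted with edgeR 4.0.16 (glmQLFit, glmQLFTest, R 4.3.3) to 4 groups over 12 libraries, for 5 contrasts, with Benjamini-Hochberg adjustment over 23096 genes. SE is that of the log2 fold change and fold values are its antilog. The code was tested on simulated counts. Text names all members, as3mt, up to 3 called genes with the largest change per list and contrast with a mean of at least 1 CPM, printed for the iAs responses of the nearest lists (from the complement and lymphoid lists only the first is printed), and the 3 most alike genes per member, not printed for the C1q genes, whose counts are low. One gene that this rule selects is not reported here. Alternatives were scaling by library size alone or by DESeq2 size factors, the DESeq2 1.42.0 test, no filter, a mean count of 50, only the libraries compared, the replicate block and each library left out. The planned promoter and protein features were not analysed here.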

Additional observations from a re-analysis of the deposited data

Results flagged for a closer look

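For 2 markers the iAs response differed between genotypes by the edgeR interaction test. The difference, mutant minus wild type on the log2 scale, was -0.87 for lyz (responses -0.71 and -1.57) and 0.67 for mpeg1.1 (-0.12 and 0.55).

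Among the other list genes whose fold change with iAs is printed above, the same test gave a difference for these. Genes named above only for their level or pattern are left out, tox and hbae3 among them, which were also called. Of the neutrophil genes, it was 2.97 for mmp13a.1 (adjusted p = 0.00458), 2.09 without treated mutant library 1, 1.15 for mmp9 (adjusted p = 0.0171) and 1.35 for adam8a (adjusted p = 4.6e-05). Of the macrophage genes, it was 0.89 for ctss2.1 (adjusted p = 0.00164), -0.69 for lgals9l1 (adjusted p = 0.00766), -2.87 for timd4 (adjusted p = 2.5e-05) and 1.01 for irf8 (adjusted p = 0.0311). For lgals9l1 the untreated mutant was already above untreated wild type (0.65 ± 0.13, adjusted p = 0.0031). Its treated genotypes were not called different (-0.04 ± 0.12, adjusted p = 0.796). The irf8 call was lost in 7 of the 12 fits that left out 1 library. Of the actin and signalling genes, it was 0.27 for arhgdig (adjusted p = 0.0117), lost with scaling by library size alone (0.20, adjusted p = 0.0639), and 0.30 for arpc1b (adjusted p = 0.0353), lost there too (0.22, adjusted p = 0.126), with no filter (0.29, adjusted p = 0.0585) and in 7 of the 12 fits that left out 1 library (adjusted p 0.0516 to 0.0977).

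For the oxidase it was 2.46 for cybb (adjusted p = 2.7e-06) and 0.56 for cyba (adjusted p = 0.0136), the latter lost without untreated wild-type library 2 (0.48, adjusted p = 0.0517). It was 1.70 for cebpb (adjusted p = 5.1e-04), 4.36 for csf3a (adjusted p = 4.2e-04), 3.57 without untreated wild-type library 2, and 1.83 for c4b (adjusted p = 5.8e-05). The value for csf3a includes its lower level in the untreated mutant, which had 3, 2 and 2 counts. For rag1 it was -0.75 (adjusted p = 0.0311), a call lost in 5 of the 12 fits that left out 1 library.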

How the results depend on the processing

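Counts of called markers stayed within 1.5 times their value under every alternative that kept all libraries, and so did the counts of all called genes. Leaving out 1 library at a time gave 0 to 1 markers higher in the untreated mutant, with 1022 to 1719 genes of all tested higher, 3 to 5 markers higher in the treated mutant and 1 to 2 with a larger response in the mutant. Scaling by library size alone moved the split of higher to lower genes for the interaction from 2842 and 4142 to 2110 and 5100. With the second MPEG1 ID in place of mpeg1.1, the wild-type response was 2.21. With the ID that the table names epx in place of mpx, the mutant was not called different from wild type without iAs (-0.39, adjusted p = 0.469). With iAs the mutant was called lower for that ID (-1.07, adjusted p = 0.00854). These ID swaps and the lyz to mpx ratio were added after seeing the data. Of 921 recomputed marker values, 19 that were never called changed sign. Numbers did not pair the samples: same-numbered libraries deviated from their group means with correlations of -0.0262 to 0.0695, and 5 of 12 libraries correlated best with their own number. With the replicate block, called markers were 0 higher and 4 lower for iAs in wild type, 3 and 2 in the mutant, 1 and 0 between untreated genotypes, 5 and 1 between treated ones and 1 and 1 for the interaction, and all genes for iAs in wild type were 5143 and 5031. The C1q counts of 0 to 25 per library limit what can be seen of those genes.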
